A study of Zea mays with 18 samples.

Results

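Leaves of a zmzfp69 line of maize and of the inbred line B73 were compared after 48 h at 4 °C, using the 3 mutant and the 3 B73 libraries of that time out of 18 libraries in the series. The other 12 libraries are the same genotypes at 0 h and 24 h, 3 libraries in each group. Plants were raised at 25 °C under 16 h of daily light to the 3-leaf stage, and each biological replicate held 50 seedlings, so a library is a pool of plants. Groups were taken from the sample titles. The titles call the line a mutant in the B73 background and the genotype field calls it a knock-down, the kind of lesion and the number of independent lines are not given, and the description field of mutant 48 h replicates 2 and 3 names 0 h. The growth text also describes a recovery step that no label ties to these samples. No gene name or description in the deposited table held zfp69 (0 matches), so the genotype labels were not checked against the targeted gene. Values are FPKM, which divide the reads of a gene by its length and by a total per library.

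Zinc finger proteins of the C2H2 class bind DNA through fingers held by a zinc ion, and several members of the class regulate cold, drought and salt responses in plants. Maize is a chilling-sensitive grass of tropical origin. In cold leaves, calcium signals activate sensor proteins and their kinases, factors of the DREB/CBF family bind promoters of cold-regulated genes such as dehydrins, and photosynthesis and nitrogen assimilation slow down. The question the comparison addresses is which transcripts differ between the genotypes at the end of the cold period.

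After 48 h, 77 of 23141 tested genes differed between mutant and B73 (0.333%), 59 of them higher in the mutant (0.255%) and 18 lower (0.0778%). A gene was tested if it reached 1 FPKM in 3 of the 18 libraries, and called if its Benjamini-Hochberg adjusted p from limma was under 0.05. At an unadjusted p under 0.05, 3250 genes passed (14%). Protein-coding genes with a name that rose included an RNase of the T2 family, a calcium-sensor-dependent kinase, a salicylic acid hydroxylase-like oxygenase, a hemoglobin and a nitrate reductase, and a small nucleolar RNA, SNORD25, rose by 4.19 on the log2 scale. The genes that fell included a homeodomain factor, a YABBY factor, a COP9 signalosome subunit and a mitochondrial ribosomal protein. Changes are log2 differences of log2(FPKM + 1), mutant minus B73, with their standard error (SE). They had a median of 2.00 among the genes that rose, -1.81 among those that fell and 0.04 over all tested genes. All 77 genes had groups that did not overlap and differed at least 2-fold on that scale, and 8.09% of all tested genes did not overlap with the mutant higher and 7.85% with the mutant lower. Levels were often low: 38 of the 59 had a B73 mean under 1 FPKM, and 12 of the 18 a mutant mean under 1 FPKM. Of the 77, 45 had a name or description, 56 were annotated as protein-coding, and 19 were gene models added by the submitters' processing, which carry no standard identifier.

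The libraries set a limit on these counts. Reads recovered from the table came to 17.8 to 19.0 M in B73 and 14.8 to 18.5 M in the mutant. B73 replicate 1 correlated more closely across genes with mutant replicate 3 (r = 0.951) than with B73 replicates 2 and 3 (r = 0.869 and 0.921). Mean correlations were 0.886 within B73, 0.922 within the mutant and 0.886 between genotypes. On the first principal component of all 18 libraries, B73 replicate 1 lay at 106, beside the mutant libraries at 109 to 112, while B73 replicates 2 and 3 lay at 46.6 and 45.3. The latter pair was close to the highest 24 h library, B73 24 h replicate 2 at 42.8. B73 24 h replicates 1 and 3 lay at -7.53 and 21.9. The part of this position in the 48 h differences was not tested. Mutant 24 h replicate 2 lay at -68.6, apart from replicates 1 and 3 of its group at 25.6 and 40.6, and the 24 h count, the 24 h list medians and the contrasts of 48 h with 24 h are given with and without it. Without B73 replicate 3 the count was 36 genes, without B73 replicate 1 it was 126, without B73 replicate 2 it was 183 and without mutant replicate 3 it was 158. Without B73 replicate 1 and mutant replicate 3 together it was 170, of which 52 were among the 77. The count was 26 when libraries were scaled to their read totals and 12 with limma-voom on the recovered reads, all 12 among the 77. Of the genes described below, the 12 include SNORD25, Zm00001d053195, the BEL1-like, YABBY 2 and profilin genes, Zm00001d019002 and Zm00001d030777. They also include the polyadenylate-binding, pentatricopeptide and nucleotide sugar transporter genes. Every other 48 h call described below ended in limma-voom. With a spread estimated from the 6 libraries alone it was 4, and 3 of the 77 passed there, namely SNORD25, the F-box gene Zm00001d018306 and an added gene model on chromosome 5. In all, 28 of the 77 passed without each of the 6 libraries in turn.

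**Figure D1:**
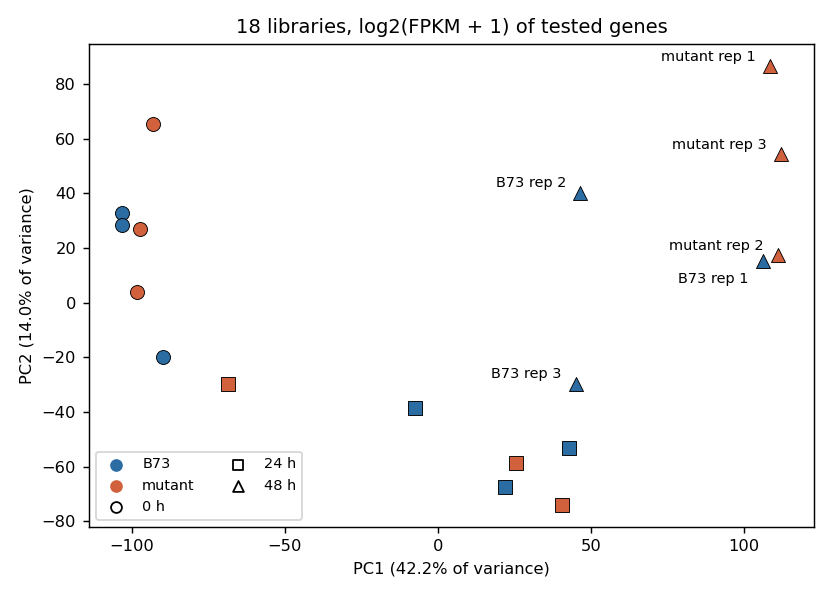
Principal components of log2(FPKM + 1) over the 23141 tested genes in all 18 libraries, coloured by genotype with a symbol per time, the 48 h libraries named. The first component (42.2% of variance) orders the 48 h libraries after the 0 h libraries, and B73 replicate 1 of 48 h lies at 106 beside the mutant libraries at 109 to 112. B73 replicates 2 and 3 of 48 h, at 46.6 and 45.3, lie close to B73 24 h replicate 2 at 42.8.

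The leaf identity of the samples was clear from the C4 enzymes. Phosphoenolpyruvate carboxylase1, the first carbon-fixing enzyme of mesophyll cells, was at 4795, 4444 and 5330.0 FPKM in B73 and 10489, 16772 and 6335 FPKM in the mutant (gene Zm00001d046170). The summed level of the mesophyll list was 12173 to 17867 FPKM in B73 and 19405 to 36642 FPKM in the mutant, that of the bundle sheath list 12996 to 18639 and 17830 to 27269 FPKM, and that of the epidermis list 168 to 268 and 293 to 488 FPKM. The vascular list summed to 323 to 896 FPKM in B73 and 282 to 341 FPKM in the mutant, and the root list to 764 to 1282 and 538 to 1046 FPKM. Of the genes in these lists, 2 of 35 mesophyll, 6 of 18 bundle sheath, 7 of 48 epidermis, 2 of 15 vascular and 6 of 14 root genes were at 0 in all 6 libraries. None of the tested members of these 5 lists passed the test. These levels are FPKM as deposited. The totals behind them were 0.677, 1.02 and 0.962 times the recovered totals in B73 replicates 1, 2 and 3. In mutant replicates 1, 2 and 3 they were 0.759, 0.672 and 0.680 times, and a lower total raises every FPKM of its library. Under scaling to read totals the mesophyll median change was 0.20 instead of 0.51, beside -0.17 instead of 0.04 over all genes. The part of scaling in these ranges was not tested. In bulk leaf RNA, fewer cells of a type and less RNA per cell cannot be told apart, and the part of cell composition in the gene results was not tested.

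Knotted1 induced1 (Zm00001d022630, chromosome 7, 181798165 to 181799397) had the largest rise on the log2 scale. Its predicted protein carries a ribonuclease T2 domain, the fold of secreted RNA-cleaving enzymes. Its level was 19.3, 30.4 and 63.2 FPKM in B73 and 1998, 2102 and 412 FPKM in the mutant. Mutant replicates 1 and 2 stood far above replicate 3, and all of them stood above every B73 library. The change was 5.12 ± 0.86 (SE, n = 3 against 3; adjusted p = 0.0152). The call ended without mutant replicate 1 (adjusted p = 0.0686) and without mutant replicate 2 (adjusted p = 0.0617). It also ended under library-total scaling, in limma-voom, with array weights and with the 6 libraries alone. The gene belongs to the list of meristem and leaf base markers by its name, and it set the sum of that list, which was 208 to 302 FPKM in B73 and 677 to 2367 FPKM in the mutant. Of 33 tested members of the list, 1 rose and 1, the YABBY 2 gene described further on, fell, and 54 of its 124 genes were at 0 in all 6 libraries. Knotted related homeobox2, the most abundant homeobox gene of the list, was at 125, 63.3 and 108 FPKM in B73 and 111, 117 and 98.1 FPKM in the mutant, with overlapping groups.

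Among signalling genes, the largest rise was in CBL-interacting protein kinase 7 (Zm00001d033316, chromosome 1, 258846263 to 258847552). Kinases of this family are switched on by calcineurin B-like calcium sensors and are known in plants for regulating ion transport under stress. The B73 libraries held 20.5, 12.5 and 3.01 FPKM and the mutant libraries 168, 184 and 306 FPKM. All mutant libraries exceeded the highest B73 library, with a change of 4.34 ± 0.71 (SE, adjusted p = 0.0132). The call ended without B73 replicate 3 (adjusted p = 0.0821), and also in limma-voom and with the 6 libraries alone. CBL-interacting protein kinase 7 was the only called gene among 181 tested calcium sensors and kinases, and the list median was 0.13. In that list 24 genes did not overlap with the mutant higher (13.3%) and 14 with the mutant lower (7.73%). Over all tested genes these shares were 8.09% and 7.85%.

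Transcription factors that rose included a pair of genes described as ethylene-responsive factor ERF110, members of the AP2/ERF family. The more abundant, Zm00001d053195, was at 40.1, 27.5 and 39.3 FPKM in B73 and 241, 202 and 103 FPKM in the mutant. Its groups were well apart, the change was 2.25 ± 0.33 (SE, adjusted p = 0.00502), and it passed without each of the 6 libraries and in limma-voom, but not with a pseudocount of 0.1. The other, Zm00001d038320, was at 1.23, 1.12 and 0.0813 FPKM against 6.51, 4.68 and 3.40 FPKM, a change of 1.73 ± 0.34 (SE, adjusted p = 0.0367). Its call ended without B73 replicate 3 or mutant replicates 1 or 2 (adjusted p = 0.182, 0.164 and 0.0937). They were the only called genes of 125 tested ethylene-responsive factors, whose median was 0.14.

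Further regulators rose by less. The auxin response factor ARF-transcription factor 16 (Zm00001d053819), which binds auxin-responsive promoters, was at 3.29, 4.54 and 3.17 FPKM in B73 and 9.88, 8.71 and 10.1 FPKM in the mutant (change 1.19 ± 0.21 SE, adjusted p = 0.0209). The GRAS family factor Zm00001d003553 was at 0, 0.499 and 0.270 FPKM against 1.40, 4.11 and 1.52 FPKM (change 1.34 ± 0.27 SE, adjusted p = 0.0479). Casein kinase 1-like protein HD16 (Zm00001d007889), which delays flowering in rice, was at 20.5, 23.6 and 18.3 FPKM against 56.2, 51.2 and 44.3 FPKM (change 1.24 ± 0.22 SE, adjusted p = 0.0238). None of these groups overlapped. Each of these calls ended without B73 replicate 3, with adjusted p of 0.116, 0.161 and 0.123, and also without mutant replicate 1 for the auxin factor (0.0739), without B73 replicate 1 or mutant replicate 2 for the GRAS factor (0.0833 and 0.116) and without mutant replicates 1 or 2 for the kinase (0.1 and 0.068). They were the only called members of 110 tested auxin genes and 67 tested gibberellin genes in the case of the first pair, with list medians of 0.10 and 0.25.

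Of 578 tested ubiquitin ligase genes 3 rose, beside 59 of all 23141 tested genes (0.255%), and the list median was 0.12. With so few calls nothing is read about the list as a whole. RING-H2 finger protein ATL8 (Zm00001d017645), of a family of membrane-bound ubiquitin ligases, was at 0.445, 2.11 and 0.392 FPKM in B73 and 15.1, 14.3 and 10.3 FPKM in the mutant (change 2.93 ± 0.52 SE, adjusted p = 0.0209). The F-box/kelch-repeat gene Zm00001d007274 was at 29.7, 15.7 and 11.8 FPKM against 64.0, 63.7 and 98.9 FPKM (change 2.00 ± 0.37 SE, adjusted p = 0.0313). F-box proteins are the substrate-binding parts of SCF ubiquitin ligases. Their groups did not overlap, but both calls ended when libraries were left out: for ATL8 without B73 replicates 1 or 3 or mutant replicates 1 or 2 (adjusted p from 0.0506 to 0.121), and for the kelch gene without each library except B73 replicate 1 (0.0532 to 0.169). The third was Tubby-like F-box protein 5 (Zm00001d033948), at 1.43, 0.912 and 1.96 FPKM against 5.59, 5.87 and 6.39 FPKM, whose change of 1.54 ± 0.21 (SE, adjusted p = 0.00302) passed without each of the 6 libraries, but not under library-total scaling or in limma-voom. A further F-box gene without a name or description, Zm00001d018306, was singled out after its values were seen, since it is among the genes that passed with the 6 libraries alone. It was at 0.716, 0.618 and 0.789 FPKM in B73 and 19.1, 16.2 and 15.0 FPKM in the mutant, far apart and narrow within each group, with a change of 3.37 ± 0.38 (SE, adjusted p = 0.000707). That call ended with a pseudocount of 0.1 and in limma-voom.

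**Figure D2:**
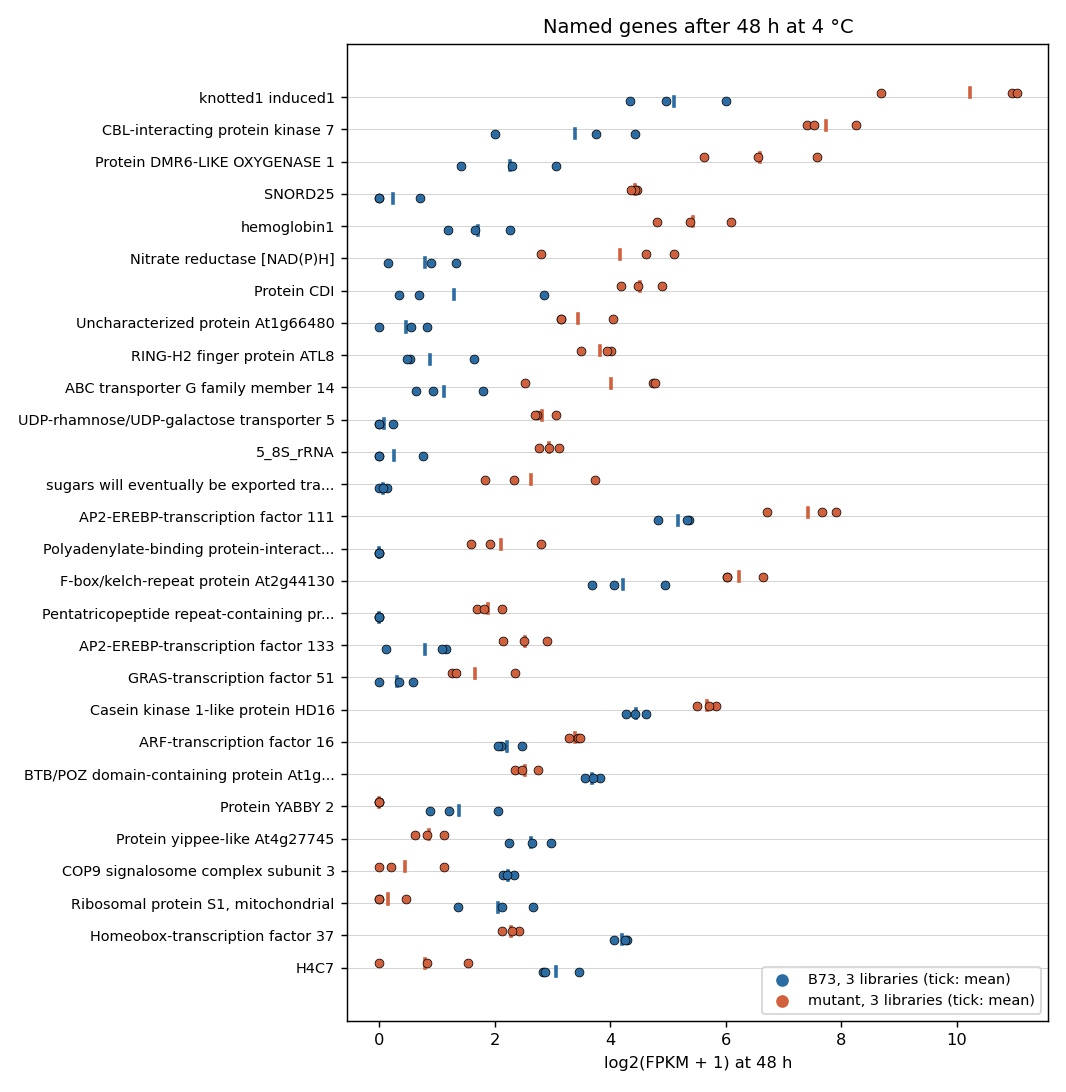
Level of the 28 genes chosen by the naming rule, as log2(FPKM + 1), in the 3 B73 and the 3 mutant libraries of 48 h, with a tick at each group mean. The groups of every gene are separate, by 5.12 between the means of knotted1 induced1 at the top and by -2.26 for the histone gene H4C7 at the bottom.

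Nitrate assimilation contributed a called gene and several that did not pass. Nitrate reductase, which reduces nitrate to nitrite in the cytosol, is encoded by more than a single gene in maize, and the form described as NAD(P)H-dependent (Zm00001d052139, chromosome 4, 180632525 to 180635840) was at 0.870, 1.5 and 0.109 FPKM in B73 and 23.6, 33.3 and 6.01 FPKM in the mutant. Mutant replicate 3 was the lowest of its group and still above all B73 libraries. The change was 3.38 ± 0.60 (SE, adjusted p = 0.0209), and the call ended without B73 replicate 3 or mutant replicates 1 or 2 (adjusted p = 0.123, 0.0934 and 0.0852). It also ended with a pseudocount of 0.1, under library-total scaling, in limma-voom and with the 6 libraries alone. The following members of the same pathway were singled out after their values were seen. Ferredoxin nitrite reductase (Zm00001d018161), which takes nitrite on to ammonium in plastids, was at 2.89, 0.982 and 1.65 FPKM in B73 and 16.5, 20.4 and 37.8 FPKM in the mutant. That difference of 3.16 ± 0.75 (SE) did not pass the test (adjusted p = 0.0988) although the groups did not overlap. NADH-dependent glutamate synthase (Zm00001d043845) was at 41.5, 19.6 and 30.4 against 108, 108 and 140 FPKM (1.97 ± 0.51 SE, adjusted p = 0.117). Glutamine synthetase6 (Zm00001d028260) was at 87.8, 36.7 and 19.6 against 172, 195 and 95.8 FPKM (1.86 ± 0.48 SE, adjusted p = 0.118). These enzymes build ammonium into amino acids, and neither passed. Of 43 tested genes of the list, 1 rose and none fell, and the median was 0.28. Of these genes, 7 did not overlap with the mutant higher (16.3%) and 4 with the mutant lower (9.30%), beside 8.09% and 7.85% of all tested genes.

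Hemoglobin1 (Zm00001d048020, chromosome 9, 148178266 to 148179408) encodes a non-symbiotic hemoglobin, a protein class known for scavenging nitric oxide. It was at 3.78, 1.29 and 2.15 FPKM in B73 and 67.2, 27.2 and 40.7 FPKM in the mutant. The lowest mutant library was well above the highest B73 library, and the change was 3.73 ± 0.59 (SE, adjusted p = 0.00954). It was lost narrowly without B73 replicate 3 (adjusted p = 0.0512) and passed without each of the other 5 libraries. The call also ended in limma-voom, with array weights and with the 6 libraries alone.

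Protein DMR6-LIKE OXYGENASE 1 (Zm00001d002564), whose Arabidopsis counterpart hydroxylates salicylic acid, was at 7.34, 1.67 and 3.93 FPKM in B73 and 48.6, 191 and 93.3 FPKM in the mutant. The mutant libraries spread widely and did not overlap B73. The change of 4.33 ± 0.86 (SE, adjusted p = 0.0415) was not robust to the libraries: it passed without B73 replicate 1 and not without any of the other 5, where the adjusted p was 0.0575 to 0.156. The gene for Protein CDI (Zm00001d052041) was at 0.608, 6.23 and 0.268 FPKM in B73 and 28.7, 21.2 and 17.3 FPKM in the mutant, with B73 replicate 2 apart from its group. Its change was 3.23 ± 0.46 (SE, adjusted p = 0.00407). The gene described as similar to Arabidopsis At1g66480 (Zm00001d000380) was at 0.777, 0 and 0.467 FPKM against 15.6, 7.85 and 7.88 FPKM, a change of 2.99 ± 0.34 (SE, adjusted p = 0.000736). The calls of Protein CDI and of the At1g66480-like gene held without each of the 6 libraries and ended with a pseudocount of 0.1 and in limma-voom.

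Transporters among the risen genes served different substrates. ABC transporter G family member 14 (Zm00001d024497), known in Arabidopsis for carrying cytokinin from root to shoot, was at 0.559, 2.46 and 0.898 FPKM in B73 and 25.9, 26.3 and 4.73 FPKM in the mutant. Mutant replicate 3 was the low library again. The change was 2.89 ± 0.55 (SE, adjusted p = 0.0331), the only call among 87 tested ABC transporters (median 0.18), and it ended without B73 replicates 1 or 3 or mutant replicates 1 or 2 (adjusted p = 0.0664, 0.153, 0.158 and 0.116). The sugar transporter SWEET3a (Zm00001d010440), of the family that moves sugars down their gradient across membranes, was at 0, 0.098 and 0.0501 FPKM in B73 and 12.4, 4.06 and 2.54 FPKM in the mutant. In reads this was 0, 2 and 1 against 164, 55 and 28. The change was 2.57 ± 0.44 (SE, adjusted p = 0.018), the only call among 111 tested starch and sucrose genes (median 0.17), and it ended without B73 replicate 3 (adjusted p = 0.0821). That call also ended with a pseudocount of 0.1, under library-total scaling, in limma-voom and with the 6 libraries alone. Singled out after its values were seen, Protein DETOXIFICATION 29 (Zm00001d033296), of the family of multidrug and toxin efflux carriers, was at 0, 0.562 and 0.0273 FPKM against 7.35, 3.14 and 3.32 FPKM, a change of 2.18 ± 0.29 (SE, adjusted p = 0.00264).

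Some cell wall and growth genes that rose lay outside the naming rule and were chosen after their values were seen. A trichome birefringence gene (Zm00001d052124), of a family that acetylates wall polysaccharides in Arabidopsis, was at 1.34, 2.24 and 0.685 FPKM in B73 and 12.1, 16.6 and 7.04 FPKM in the mutant (change 2.39 ± 0.31 SE, adjusted p = 0.00264). The xylosyltransferase gene XYXT1 (Zm00001d014721), which decorates xylan in rice, was at 2.59, 2.85 and 0.781 against 19.6, 12.9 and 10.04 FPKM (change 2.33 ± 0.41 SE, adjusted p = 0.0209). Its call, unlike that of the former, ended without B73 replicate 3 or mutant replicates 1 or 2 (adjusted p = 0.123, 0.1 and 0.0589). Retinoblastoma family3 (Zm00001d031678), a member of the family that restrains entry into the cell cycle, was at 0.392, 2.06 and 2.29 FPKM against 5.38, 8.49 and 8.59 FPKM (change 1.79 ± 0.28 SE, adjusted p = 0.0087). ARGOS4 (Zm00001d038201), of a family that promotes organ growth in Arabidopsis, was at 0, 0 and 0.828 FPKM against 12.5, 3.67 and 5.71 FPKM (change 2.62 ± 0.41 SE, adjusted p = 0.00951).

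A pair of short non-coding RNAs rose, although the libraries were made from RNA selected on poly(A) tails. SNORD25 (ENSRNA049459026, chromosome 5, 190053624 to 190053709), a small nucleolar RNA of a class that guides methylation of ribosomal RNA, had 0, 0 and 1 reads in B73 and 22, 22 and 17 reads in the mutant, or 0, 0 and 0.636 against 21.1, 20.6 and 19.6 FPKM. Its change of 4.19 ± 0.20 (SE, adjusted p = 1.86e-08) passed in every alternative, and it rests on few reads. A 5.8S ribosomal RNA gene on an unplaced contig (ENSRNA049479107) had 0, 0 and 2 reads against 11, 13 and 12 reads, a change of 2.69 ± 0.41 (SE, adjusted p = 0.00596). The sources used here do not say how reads that match several copies were counted, so the copy that produced them is uncertain. The part of RNA selection or RNA quality in these rises was not tested.

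A few genes were near or at 0 in one genotype at every time. Polyadenylate-binding protein-interacting protein 11 (Zm00001d037395) had no read in any of the 9 B73 libraries and 1.56 to 6.84 FPKM in the 9 mutant libraries. At 48 h it was at 0, 0 and 0 against 2.79, 2.02 and 5.96 FPKM (adjusted p = 0.00264), at least 30.04-fold higher against a floor of 3 reads per B73 library. An added gene model described as a pentatricopeptide repeat protein, an organelle RNA-binding class (chromosome 6, 163305513 to 163309953), was absent from the 9 B73 libraries likewise and was at 3.37, 2.22 and 2.51 FPKM in the mutant at 48 h, at least 32.9-fold higher (adjusted p = 0.00407). An added gene model described as UDP-rhamnose/UDP-galactose transporter 5, a carrier of nucleotide sugars into the Golgi (chromosome 4, 196519322 to 196521026), was at 0, 0 and 0.179 FPKM in B73 and 5.62, 5.49 and 7.32 FPKM in the mutant (change 2.75 ± 0.22 SE, adjusted p = 2.52e-05). These 3 genes passed without each of the 6 libraries and were called higher at 0 h and 24 h too. Their 48 h calls ended when the spread was estimated from the 6 libraries alone. The unnamed gene Zm00001d030777 was also at 0 in all 9 B73 libraries and above 0 in all 9 mutant libraries.

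In the other direction, a gene described as Protein YABBY 2 (Zm00001d013661, chromosome 5, 16648811 to 16650019) had no read in any of the 9 mutant libraries and 0.845 to 4.51 FPKM in the 9 B73 libraries. YABBY factors pattern leaf sides and leaf growth. At 48 h it was at 1.31, 0.845 and 3.14 FPKM, from 11, 11 and 40 reads, against 0 in each mutant library, at least 4.68-fold lower in the mutant (adjusted p = 0.0252). Its call at 48 h ended without B73 replicate 3 or mutant replicates 1 or 2 (adjusted p = 0.0877, 0.0788 and 0.0697). The largest fall of all was in the short unnamed gene Zm00001d019002 (chromosome 7, 12662001 to 12662237), chosen after its values were seen. It was at 233, 196 and 123 FPKM in B73 and 2.09, 4.08 and 8.37 FPKM in the mutant, and the groups were far apart. Its change was -5.08 ± 0.62 (SE, adjusted p = 0.0018), beside -4.50 at 0 h (adjusted p = 0.00388) and -4.91 at 24 h (adjusted p = 0.00244).

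Among the named genes that fell, BEL1-like homeodomain protein 7 (Zm00001d013547, chromosome 5, 14028554 to 14034708) had the most even libraries. BEL1-like proteins pair with KNOX homeodomain proteins to regulate meristems and organ shape. It was at 18.7, 15.8 and 18.1 FPKM in B73 and 3.38, 4.36 and 3.94 FPKM in the mutant, and no library came near the other group. The change was -1.92 ± 0.24 (SE, adjusted p = 0.00209) and passed without each of the 6 libraries and in limma-voom. At 0 h the same gene was at 13.1, 17.3 and 28.2 FPKM in B73 and 7.27, 8.02 and 7.35 FPKM in the mutant, with a difference that did not pass there (-1.20, adjusted p = 0.0618).

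The 48 h calls of the remaining named falls were less firm when libraries were left out. H4C7, a histone H4 gene (Zm00001d020584), was at 6.10, 6.35 and 9.99 FPKM in B73 and 0, 0.775 and 1.91 FPKM in the mutant (change -2.26 ± 0.44 SE, adjusted p = 0.0392). It is the only called gene of 69 tested histones, a family of near-identical copies among which reads may be split, and its list median was -0.06. COP9 signalosome complex subunit 3 (Zm00001d035130), part of a complex that removes the NEDD8 tag from cullin ubiquitin ligases, was at 4.04, 3.42 and 3.61 FPKM against 0, 1.18 and 0.146 FPKM (change -1.79 ± 0.34 SE, adjusted p = 0.0317). It was also lower in every mutant library at 0 h, at 2.56 to 4.36 against 0.954 to 1.78 FPKM. The same held at 24 h, at 3.04 to 5.38 against 0.353 to 2.09 FPKM. Neither difference passed (adjusted p = 0.674 and 0.141). The mitochondrial ribosomal protein S1 gene (ZeamMp097) was at 3.35, 5.36 and 1.58 FPKM against 0, 0 and 0.382 FPKM (change -1.90 ± 0.36 SE, adjusted p = 0.0319). Beside it, organelle genes took 0.180 to 0.407% of reads in B73 and 0.0712 to 0.157% in the mutant, ranges that did not overlap, and the part of that share in the fall was not tested. A gene for a BTB/POZ domain protein (Zm00001d035208), a class of adaptors of cullin ligases, was at 10.8, 13.2 and 11.9 FPKM against 4.10, 5.68 and 4.55 FPKM (change -1.17 ± 0.21 SE, adjusted p = 0.0217). It too was lower in every mutant library at 0 h, at 26.8 to 36.6 against 18.5 to 23.3 FPKM. At 24 h it was at 20.9 to 25.2 against 16.2 to 18.8 FPKM. Neither of these differences passed (adjusted p = 0.775 and 0.535). The calls of H4C7, the COP9 subunit and the ribosomal protein gene each held in only 2 of the 6 fits that left out a library, with adjusted p up to 0.188, 0.151 and 0.125. H4C7 held without B73 replicate 2 or mutant replicate 3, the COP9 subunit without B73 replicate 2 or mutant replicate 2, and the ribosomal protein gene without B73 replicate 3 or mutant replicate 3. The BTB/POZ call ended without B73 replicate 3 (0.0927) or mutant replicate 1 (0.1). The groups of H4C7 overlapped at 0 h and 24 h, and those of the ribosomal protein gene at 0 h.

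**Figure D3:**
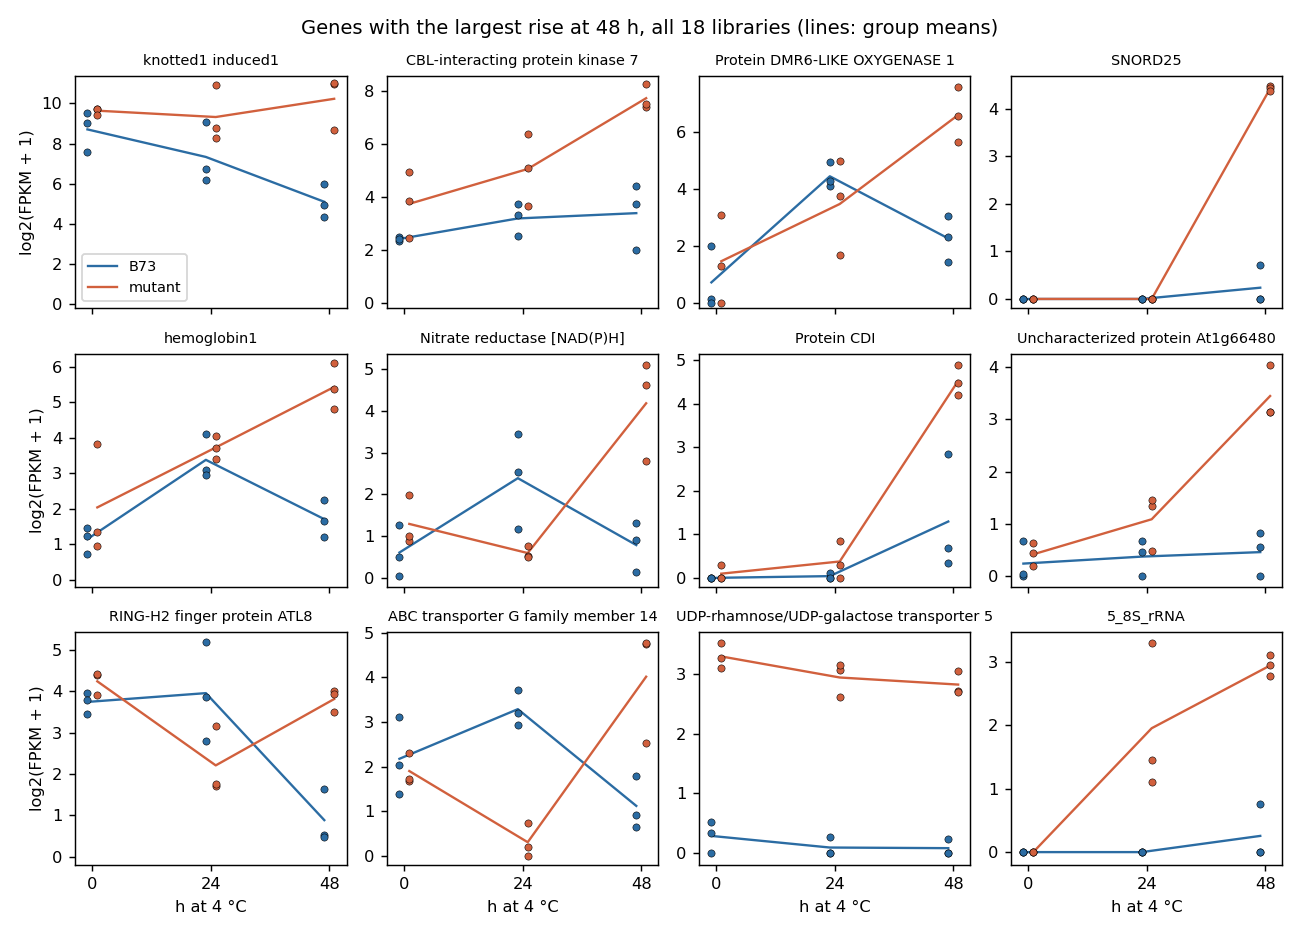
Level of the 12 named genes with the largest rise at 48 h, as log2(FPKM + 1), in all 18 libraries by hours at 4 °C, with lines through the group means. At 48 h the genotypes are separate in each panel, while at 0 h the nucleotide sugar transporter model is the only gene of the 12 that was called, at 0, 0.266 and 0.429 FPKM in B73 and 7.56, 10.6 and 8.64 FPKM in the mutant.

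The 48 h differences were set beside those of 0 h and 24 h, which come from other libraries. At 0 h, 49 genes were called (0.212%), 37 higher (0.16%) and 12 lower (0.0519%), and at 24 h 95 (0.411%), 49 higher (0.212%) and 46 lower (0.199%). Without mutant 24 h replicate 2 the 24 h count was 47, of which 36 were among the 95. Of the 59 genes that rose at 48 h, 5 had also risen at 0 h, which is 8.47% of the 48 h genes and 13.5% of the 0 h genes, and 6 at 24 h (10.2% and 12.2%). Of the 18 that fell, 2 had fallen at 0 h (11.1% and 16.7%) and 2 at 24 h (11.1% and 4.35%). Across the 3 times, 6 genes were called in the same direction, 4 higher and 2 lower. Whether the 48 h difference itself departed from that at 0 h was tested as the interaction of genotype and cold. It passed for 2 genes (0.00864%), 1 higher (0.00432%) and 1 lower (0.00432%), of which SNORD25 is the only one among the 77. At an unadjusted p under 0.05 it passed for 1725 of all tested genes (7.45%) and for 65 of the 77, which were chosen on the 48 h arm of this contrast, so nothing is read from that count. Against 0 h, SNORD25 alone among the 77 had a change shown to depend on time, and it had no read in any of the 12 libraries of 0 h and 24 h. In limma-voom that interaction passed for 0 genes, with 1582 at an unadjusted p under 0.05.

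The earlier levels differed in pattern from gene to gene. Knotted1 induced1 was at 736, 522 and 189 FPKM in B73 at 0 h and at 106, 536 and 72.9 FPKM at 24 h, and the mutant was at 858, 855 and 689 FPKM and then at 1934, 438 and 309 FPKM. The B73 libraries of 48 h, at 63.2 FPKM or less, lay below all earlier B73 libraries, whereas mutant replicates 1 and 2 of 48 h lay above all earlier mutant libraries and replicate 3 lay among them. ERF110 gene Zm00001d053195 showed another pattern, at 0.188 to 0.722 FPKM in B73 and 0.708 to 1.27 FPKM in the mutant at 0 h, and 27.5 FPKM or more in all 6 libraries of 48 h. The genotype by cold interactions of these genes, 4.19 ± 1.21 (SE) and 1.76 ± 0.47 (SE), did not pass (adjusted p = 0.426 and 0.374).

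Some genes were called in opposite directions at 24 h and 48 h, and the difference between these times was tested with a contrast chosen after the data were seen, which 39 of all tested genes passed (0.169%), 14 of them among the 77. Without mutant 24 h replicate 2 it passed for 24 genes, 10 of them among the 77. ABCG14 was at 8.24, 12.1 and 6.68 FPKM in B73 and 0.139, 0 and 0.657 FPKM in the mutant at 24 h, the reverse of 48 h, and its change differed by 5.87 ± 0.78 between the times (SE, adjusted p = 0.0063), and by 5.72 ± 0.84 without mutant 24 h replicate 2 (SE, adjusted p = 0.0182). Protein yippee-like At4g27745 (Zm00001d020160), a small zinc-binding protein, was at 3.75, 6.84 and 5.24 FPKM in B73 and 0.769, 1.18 and 0.528 FPKM in the mutant at 48 h (change -1.77 ± 0.31 SE, adjusted p = 0.0209). At 24 h it was at 0.615, 1.55 and 1.84 FPKM in B73 and 6.33, 8.09 and 4.56 FPKM in the mutant, a contrast of -3.43 ± 0.44 (SE, adjusted p = 0.0063), or -3.26 ± 0.46 without mutant 24 h replicate 2 (SE, adjusted p = 0.0147). Without that library the 24 h calls of ABCG14 and of the yippee-like gene ended (adjusted p = 0.108 and 0.119). Its 48 h call ended without B73 replicate 3 (adjusted p = 0.0907) or mutant replicate 1 (0.0686). Nitrate reductase Zm00001d052139 was also lower in all mutant libraries at 24 h, at 1.27, 9.90 and 4.80 FPKM in B73 and 0.703, 0.443 and 0.421 FPKM in the mutant, a difference of -1.79 that did not pass at that time (adjusted p = 0.247). The contrast of its changes between 48 h and 24 h passed (5.17 ± 0.85 SE, adjusted p = 0.0216), but not without mutant 24 h replicate 2 (5.14 ± 0.92 SE, adjusted p = 0.0556).

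**Figure D4:**
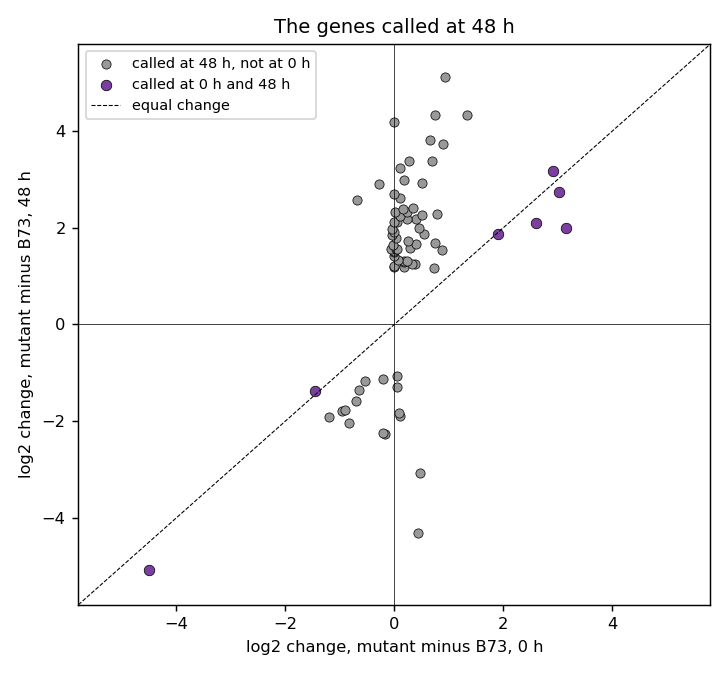
Change (mutant minus B73, log2) of the 77 genes called at 48 h, on the vertical axis, against their change at 0 h, with a dashed line of equal change. The 7 genes called at both times have changes of the same sign at each, and of the genes that rose 42 have an absolute change under 0.5 at 0 h; the members were chosen on the vertical axis.

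Lists of genes by pathway, read from names and descriptions, gave few calls: 9 of 48 lists held a called gene, 39 held none, and 12 of the 77 genes were in any list. The cold-response factors of the DREB/CBF family had 11 tested genes, of which none passed and all had overlapping groups, with a median of -0.91 beside 0.04 over all genes. That median was -0.30 without mutant replicate 1 and 0 without a filter on low values, and ran from -1.33 to 0 over the alternatives. The list median was also low at 0 h (-0.45) and at 24 h (-0.86, or -0.46 without mutant 24 h replicate 2). The members given here were chosen after their values were seen, and 7 of the 11 were estimated lower in the mutant and 4 higher. DRE-binding protein 1 (Zm00001d032295) was at 19.6, 20.1 and 30.5 FPKM in B73 and 2.51, 6.23 and 27.7 FPKM in the mutant (-1.41 ± 0.64 SE, adjusted p = 0.341). The most abundant member, Zm00001d021208, was at 85.7, 178 and 115 FPKM against 11.6, 141 and 84.4 FPKM (-1.18 ± 0.92 SE, adjusted p = 0.59), with mutant replicate 1 as the low library. AP2-EREBP-transcription factor 79 (Zm00001d031728) had the highest estimate of the list, at 13.4, 3.05 and 20.6 FPKM against 28.4, 48.3 and 16.8 FPKM (1.45 ± 0.65 SE, adjusted p = 0.332). Among 17 tested dehydrin, LEA and cold-regulated genes none passed. Dehydrin13 (Zm00001d033483), a hydrophilic protein that protects cells from water loss, was at 692, 384 and 786 FPKM in B73 and 2503, 3203 and 2852 FPKM in the mutant, groups that did not overlap, and its difference of 2.26 ± 0.80 (SE) did not pass (adjusted p = 0.232). Of 70 tested C2H2 zinc finger genes none passed. Among them 1 did not overlap with the mutant higher (1.43%) and 2 with it lower (2.86%), beside 8.09% and 7.85% of all tested genes.

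The following 4 metabolic lists held no called gene and were singled out after their values were seen, so their counts are a description with no test. Over all tested genes, 8.09% did not overlap with the mutant higher and 7.85% with it lower. Shares near those below were also found in other lists. Of 52 tested membrane lipid desaturation genes, 10 did not overlap with the mutant higher (19.2%) and 2 with it lower (3.85%). Of 87 tested ABC transporters, 16 did not overlap with the mutant higher (18.4%) and 2 with it lower (2.30%). Among the 26 tested mesophyll markers 8 did not overlap with the mutant higher (30.8%) and none with it lower, and the part of cell composition in these lists was not tested. The counts of groups that did not overlap are of FPKM as deposited, whose totals differed in part with genotype. Under scaling to read totals the median over all genes was -0.17 instead of 0.04. Of 66 tested jasmonate genes, 14 did not overlap with the mutant higher (21.2%) and 2 with it lower (3.03%), with a median of 0.10 that was -0.11 under scaling to read totals. Allene oxide synthase1 (Zm00001d048021), an early enzyme of jasmonate synthesis, was at 72.8, 166 and 59.7 FPKM in B73 and 1089, 466 and 228 FPKM in the mutant, a difference of 2.43 ± 0.80 (SE) that did not pass (adjusted p = 0.206). Of 54 tested carbon fixation and C4 genes, 11 did not overlap with the mutant higher (20.4%) and none with it lower, and their median of 0.37 was 0.06 under that scaling. Phosphoenolpyruvate carboxylase1, whose values are given above, differed by 1.10 ± 0.74 (SE, adjusted p = 0.526; gene Zm00001d046170). Of 90 tested phenylpropanoid and lignin genes, 18 did not overlap with the mutant higher (20%) and 5 with it lower (5.56%), with a median of 0.53, or 0.28 under that scaling. The list for benzoxazinoids and terpenes, defence compounds of maize, had 28 tested members, 6 of them not overlapping with the mutant higher (21.4%) and none with it lower, with a median of 0.64, or 0.35 under that scaling. Benzoxazinone synthesis3 (Zm00001d048702) was at 12.1, 5.27 and 17.4 FPKM in B73 and 49.9, 52.3 and 45.0 FPKM in the mutant (2.12 ± 0.64 SE, adjusted p = 0.169). The members with values here were singled out after these were seen. At 24 h the medians of these 4 lists were -0.44, -0.29, -0.46 and -0.61 in the order given, and -0.35, -0.03, -0.33 and -0.42 without mutant 24 h replicate 2.

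Cytosolic ribosomal proteins had the lowest median after the DREB/CBF list. None of 273 tested genes passed, and the median was -0.51. Of these genes, 24 did not overlap with the mutant lower (8.79%) and 3 with it higher (1.10%), beside 7.85% and 8.09% of all tested genes. Before cold, at 0 h, the list median was already -0.56, and at 24 h it was 0.09, or 0.10 without mutant 24 h replicate 2. The 48 h median was -0.75 under scaling to read totals, and it rested in part on B73 replicate 2, without which it was -0.16.

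**Figure D5:**
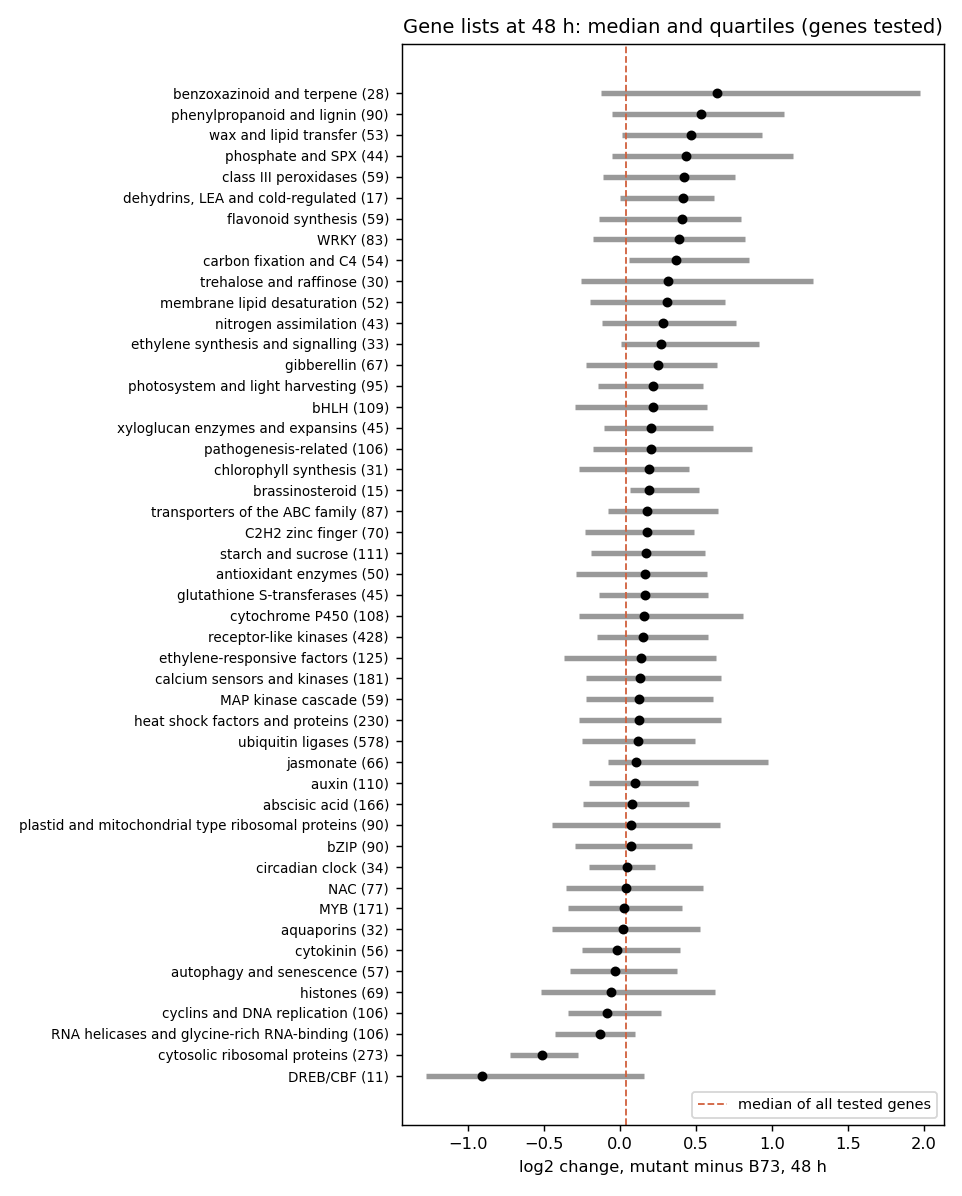
Median (point) and quartiles (bar) of the change at 48 h, mutant minus B73 on the log2 scale, of the tested genes in each of 48 pathway lists, with the number tested in brackets and the median of all tested genes as a dashed line. Medians run from -0.91 for the 11 DREB/CBF genes to 0.64 for the 28 benzoxazinoid and terpene genes, against 0.04 over all genes, and the quartiles of most lists include the dashed line.

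The called genes lay on all 10 chromosomes, as the deposited table places them. Chromosome 6 had the highest share of tested genes called among the chromosomes (11 of 1958, 0.562%) and chromosome 9 the lowest (2 of 1686, 0.119%), beside 0.333% over the genome. Within 1 Mb of each other, 5 pairs of called neighbours were found. On chromosome 1, Protein DETOXIFICATION 29, the B3 domain gene ABI3-VP1-transcription factor 4 (Zm00001d033313) and CBL-interacting protein kinase 7 lay between 257976128 and 258847552, and all rose. The first pair was 682 kb apart with 7 tested genes between them, none of them called, and the second 180 kb apart with none between. The B3 domain gene, of a family of plant DNA-binding proteins, was at 2.13, 0.761 and 0.814 FPKM in B73 and 11.2, 8.95 and 7.72 FPKM in the mutant (change 2.24 ± 0.31 SE, adjusted p = 0.0035). On chromosome 4, the trichome birefringence gene and nitrate reductase Zm00001d052139 lay 277 kb apart with 4 tested genes between them, and both rose. On chromosome 2, a pair of added gene models 0.976 kb apart both fell, one of them described as profilin-4, a regulator of actin filaments. The profilin model was at 2.84, 2.55 and 3.19 FPKM in B73 and 0.617, 0.396 and 0.530 FPKM in the mutant (change -1.35 ± 0.25 SE, adjusted p = 0.0281), and its call ended without B73 replicates 1 or 3 or mutant replicates 1 or 2 (adjusted p from 0.0506 to 0.128). The pair on chromosome 6, 303 kb apart with 4 tested genes between, moved in opposite directions: the unnamed gene Zm00001d035199 rose and the BTB/POZ gene Zm00001d035208 fell. Whether neighbours share reads or a transcript was not tested.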

How the data were processed

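Poly(A)-selected leaf RNA was sequenced from directional libraries, per the labels' protocols. The authors deposited a table of FPKM per gene. The submitters' processing notes name DESeq2 1.20.0, featureCounts 1.5.0-p3, HISAT2 2.0.5 and fastp. The sources used here give no settings, no strand use in counting and no genome build, and coordinates are printed as deposited. FPKM values were whole multiples of 1 read (100% within 0.01), so reads were recovered. The totals behind the FPKM were 0.677, 1.02 and 0.962 times the recovered totals in B73 replicates 1, 2 and 3 of 48 h. In mutant replicates 1, 2 and 3 of 48 h they were 0.759, 0.672 and 0.680 times the recovered totals. A lower total raises the FPKM of all genes in its library, so this scaling differed in part with genotype. With scaling to the recovered totals instead, the 48 h count was 26.

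Values were fitted as log2(FPKM + 1), which understates fold changes of low genes, with limma 3.58.1 (lmFit, contrasts.fit, eBayes with trend) in R 4.3.3 on all 18 libraries in 6 groups (12 residual degrees of freedom). Genes with at least 1 FPKM in 3 libraries were tested, and adjusted p-values are Benjamini-Hochberg values over all of them. The fit was tested on simulated data with normal noise drawn independently for each gene and library. Such noise lacks deviations that many genes of a library share, so the simulation says nothing about their effect on the counts. The reads of same-group libraries differed beyond sampling noise (chi-square per gene at least 40.9), so each counted as 1 replicate. With 3 against 3 libraries an exact permutation test cannot go below 0.1 and was not used. Replicates are pools of seedlings, and p-values measure the spread between them, pooled over all 6 groups. A gene at 0 throughout a group has no spread there, which lowers its SE.

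The comparison, its members and the gene lists were chosen with earlier results of these data known. The naming rule took the 12 largest rises and 12 largest falls with a name and a mean of 5 FPKM or more in the higher group, the 2 largest called changes per direction and list, the 6 most abundant called genes per direction and the genes called at all 3 times. Alternatives were another pseudocount (0.1), no filter, other scalings, limma-voom, array weights, fewer libraries and a replicate block.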

Additional observations from a re-analysis of the deposited data

Results flagged for a closer look

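The difference between genotypes changed with time for the following genes by a test of that change itself. The gene for NAD(P)H-quinone oxidoreductase subunit L (Zm00001d005741) was at 56.5, 12.7 and 50.9 FPKM in the mutant at 0 h and at 0 in the 3 B73 libraries of 0 h and in all 6 libraries of 48 h, so its 48 h change was lower than its 0 h change by a contrast of -5.11 ± 0.58 (SE, limma adjusted p = 0.00249). For SNORD25 the contrast of 48 h minus 0 h was 4.19 ± 0.28 (SE, limma adjusted p = 3.18e-06), and it rests on 22, 22 and 17 mutant reads and 1 B73 read.

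Between 24 h and 48 h the direction turned for 3 genes, by a contrast chosen after the data were seen. An added gene model on chromosome 2 (84671261 to 84698690), with no description, had a contrast of -8.97 ± 1.2 (SE, limma adjusted p = 0.0063). Its mean was 0.0836 ± 0.145 FPKM in B73 and 47.6 ± 40.2 FPKM in the mutant at 24 h, and 24.5 ± 10.2 FPKM in B73 and 0.211 ± 0.189 FPKM in the mutant at 48 h (SD, n = 3). Its 48 h call held without B73 replicate 2 and ended without each of the other 5 libraries of 48 h (adjusted p from 0.0658 to 0.188). ABCG14 had a contrast of 5.87 and the yippee-like gene of -3.43, with the values given in the report. Without mutant 24 h replicate 2, which lay apart from its group, the contrasts of the gene model, ABCG14 and the yippee-like gene were -8.17, 5.72 and -3.26 (limma adjusted p = 0.0147, 0.0182 and 0.0147), while their 24 h calls ended (adjusted p = 0.113, 0.108 and 0.119). The cause of these turns was not tested.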

How the results depend on the processing

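The count of 77 genes at 48 h was 26 under library-total scaling (20 rose, 6 fell), 12 in limma-voom (8 and 4), 4 with only the compared libraries (4 and 0, with 2435 at an unadjusted p under 0.05) and 43 with array weights, whose estimation did not converge (37 and 6). With a pseudocount of 0.1 it was 52, of which 27 rose, so the share of rises was 51.9% instead of 76.6%, and 36 of the 52 were among the 77, of which 41 lost the call. Leaving out 1 library of 48 h gave 36 to 183 genes (30 to 144 rose, 6 to 48 fell). Without B73 replicate 1 and mutant replicate 3 it gave 170 (116 and 54), and without mutant 24 h replicate 2, 98 (28 fell). The last pair of settings was chosen after seeing the data. The count at 0 h (49) was 31 with the pseudocount of 0.1, 112 without a filter, 18 with only the compared libraries, 7323 with array weights and 25 to 54 when 1 library was left out. The count at 24 h (95) was 41 in limma-voom, 1 with only the compared libraries, 801 with array weights and 24 to 208 when 1 library was left out. The interaction of 48 h and 0 h (2 genes) gave 24 without a filter, 0 in limma-voom (1582 at an unadjusted p under 0.05), 5 with only the compared libraries, 88 with array weights and 2 to 5 when 1 library was left out.

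No called value of a named gene reversed its direction in the alternatives run. List medians were less steady: 25 of 48 pathway medians had the other sign under library-total scaling, and 28 took both signs over the alternatives. Of 503 recomputed values of named genes 168 no longer passed, and 14 of 972 list medians moved by more than the spread of their list. The median change over all genes was -0.17 under library-total scaling and -0.24 in limma-voom, against 0.04. Replicate numbers did not pair the libraries: deviations of same-numbered libraries correlated at -0.23, -0.17 and 0.11, and with the replicate number as a block the count was 73 at 48 h (62 among the 77), 47 at 0 h, 77 at 24 h and 2 for the interaction. Deviations of B73 replicates 1, 2 and 3 correlated at 0.34, 0.52 and 0.35 with mutant replicates 3, 1 and 2. With mutant replicates 2, 3 and 1 they correlated at -0.12, -0.39 and -0.40. A pairing other than by number was not tested. At the depth of these libraries 64 of the 77 genes had 20 or more reads in every library of the higher group.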
